A study of Mus musculus with 4 samples.

Results

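MHC class II antigen presentation was followed through 10 genes across the cell classes and conditions of a mouse liver single-cell RNA-seq series: H2-Aa, H2-Ab1, H2-Eb1, Cd74, H2-DMa, H2-DMb1, H2-DMb2, H2-Oa, H2-Ob and Ciita. They were chosen by name for their role in the pathway, and they are 10 of the 31053 genes in the count matrices. The series used C57BL/6 mice aged 8 to 10 weeks, in which concanavalin A (ConA), a plant lectin that activates T cells, was injected to inflame the liver. Mononuclear cells were enriched from the liver on a Percoll gradient and sequenced with a 10x 5′ kit. The Naïve library came from mice without ConA, and the other libraries were collected 24 hours after ConA from mice that received corn oil vehicle (ConA+Veh), TCDD at 10 µg/kg (ConA+TCDD) or FICZ (ConA+FICZ). TCDD, a dioxin, and FICZ, a tryptophan photoproduct, are ligands of the aryl hydrocarbon receptor; TCDD or vehicle was given 1 hour after ConA. Each condition is 1 library, and neither the number of mice in a library nor the FICZ dose is given in the sources used here. Library preparation and condition therefore cannot be told apart, no test between conditions was possible, and every interval below covers counting error only.

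MHC class II molecules show peptides from the endosomal pathway to CD4 T cells. An alpha chain (H2-Aa for I-A) and a beta chain (H2-Ab1 for I-A, H2-Eb1 for I-E) pair with the invariant chain, Cd74, which guides them to late endosomes and leaves a fragment in the groove. H2-DM, made of H2-DMa with H2-DMb1 or H2-DMb2, exchanges that fragment for peptide, and H2-DO, made of H2-Oa and H2-Ob, inhibits H2-DM and is known chiefly from B cells. Ciita is the coactivator that switches these genes on, through factors bound to a shared promoter module, and interferon gamma induces it in many cell types. C57BL/6 mice make no surface I-E because the H2-Ea gene is defective, so H2-Eb1 RNA there encodes a chain without its usual partner. In GENCODE M21 (GRCm38) all 10 genes are annotated as protein coding, 8 of them in the H2 complex of chromosome 17 and Ciita on chromosome 16.

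The shared promoter module can be read in the letters upstream of RefSeq gene starts. Its X box, bound by the RFX complex, contains AAC, and its Y box, bound by NF-Y, reads TGATTGG. RefSeq promoter windows on GRCm38.p6, from 250 bases before to 50 bases after a gene start, were matched by symbol for 7 of the 10 genes. AAC followed after 20 to 30 letters by TGATTGG, searched on either strand and with no overlap between the pieces, was present for 6 of those 7. Counted by window, the pair was in 6 of their 8 windows, against 1.05% of all 32851 windows of the same length. TGATTGG by itself was present in 7.82% of all windows. The spacing was chosen after the windows had been read, so the count is a description. The stretches are shown because they cover genes that behaved differently below, with the AAC and the TGATTGG in capitals, 5′ to 3′ on the strand of the gene:
H2-Aa, chr17:34287852-34287917, minus strand: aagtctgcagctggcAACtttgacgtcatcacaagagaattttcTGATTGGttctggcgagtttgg
H2-Eb1, chr17:34305763-34305827, plus strand: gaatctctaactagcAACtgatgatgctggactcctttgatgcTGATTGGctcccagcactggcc
H2-DMb2, chr17:34145113-34145178, plus strand: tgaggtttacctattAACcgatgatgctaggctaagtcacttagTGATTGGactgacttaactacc
H2-Oa, chr17:34092290-34092355, plus strand: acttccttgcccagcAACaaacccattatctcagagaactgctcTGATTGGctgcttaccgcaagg
H2-Ob, chr17:34238805-34238867, plus strand: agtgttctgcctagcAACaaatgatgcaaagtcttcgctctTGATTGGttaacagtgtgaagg
Between the 2 pieces lay 26 letters in H2-Aa, H2-DMb2 and H2-Oa, 25 in H2-Eb1 and 23 in H2-Ob. The TGATTGG ended 38 letters before the RefSeq start of H2-Oa and 85 before that of H2-DMb2, with H2-Aa at 43, H2-Ob at 52 and H2-Eb1 at 54. GENCODE M21 places some starts elsewhere. Its H2-Oa gene starts at 34092340, within the stretch shown. Its H2-DMb2 gene starts at 34143307, so the stretch shown lies inside that gene. The sixth match was in H2-DMb1, and the 2 windows of H2-DMa held neither the pair nor TGATTGG. That absence says only that these letters are not in these windows.

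The 4 libraries held 1880 to 2779 cells and 5952445 to 19252211 UMIs (unique molecular identifiers, 1 per captured RNA molecule), and the median cell had 2161 UMIs in Naïve against 3147 to 3984 after ConA. Any pair of libraries shared 4 to 15 cell barcodes, at most 0.719% of a library. No cell annotation was used. A cell was put in a class when it held UMIs of at least 2 marker genes of that class and led every other class, and none of the 10 genes was a marker. The classes are B cell-like, T cell-like and so on, and are called B cells and T cells below. They are ranges of a marker count rather than sorted populations. At a limit of the gate stood 26 to 60 B cells a library, with only 2 markers or a lead of only 2 over another lineage. The gate left 9.54% of the Naïve cells and up to 28.2% of the cells of a library after ConA unassigned. Hepatocyte-like cells numbered 5, 4 and 0 in Naïve, ConA+Veh and ConA+TCDD and 43 in ConA+FICZ.

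B cells carried most of the class II UMIs of the gated classes. There were 1089 B cells in Naïve, 827 in ConA+Veh, 402 in ConA+TCDD and 795 in ConA+FICZ. In the median Naïve B cell the 10 genes made up 4.30% of all UMIs, and in every library the T cells, which should lack these genes, had a median of at most 0.00389%. Levels are given as CPM, the UMIs of a gene per 1000000 UMIs of the cells in that class and library. Where 4 values follow each other they run in library order, from Naïve through vehicle and TCDD to FICZ. Cd74 in B cells stood at 24175 CPM in Naïve, 14182 in ConA+Veh, 12751 in ConA+TCDD and 11716 in ConA+FICZ. In T cells of the same libraries it stood at 43.2, 136, 48.6 and 42.3 CPM.

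**Figure D1:**
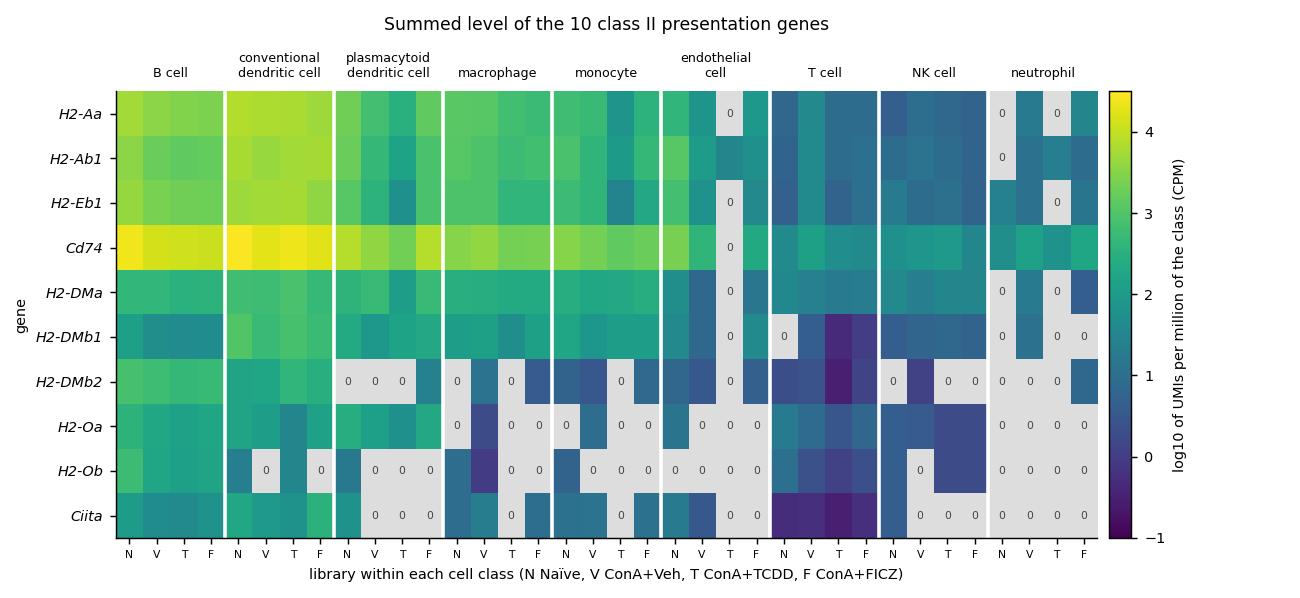
Level of each of the 10 genes (rows) in 9 cell classes and 4 libraries (columns), as log10 of CPM; a grey square with 0 marks a class and library without a UMI of the gene. B cells and conventional dendritic cells are the brightest for the chains and Cd74, H2-Ob is far brighter in B cells than in any other class, and H2-DMa stays visible in T and NK cells.

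The order of the classes by Cd74 was led by conventional dendritic cells and B cells in every library. Conventional dendritic cells held 28847, 19268, 22753 and 18087 CPM in library order, from 15, 16, 7 and 4 cells, and their intervals lay above those of B cells in each library. Plasmacytoid dendritic cells came next in Naïve and ConA+FICZ and were level with macrophages in ConA+Veh and ConA+TCDD, at 7805, 3899, 2109 and 7718 CPM. Macrophages held 3146, 4062, 2189 and 2316 CPM and monocytes 3198, 2249, 1404 and 1796 CPM. In Naïve the intervals of macrophages (2817 to 3502 CPM) and monocytes (2942 to 3471 CPM) overlapped, as did those of plasmacytoid dendritic cells (3452 to 4388 CPM) and macrophages (3941 to 4186 CPM) in ConA+Veh and of the same classes in ConA+TCDD. NK cells at 33.7 to 88.1 CPM and neutrophils at 51.3 to 177 CPM were low, as were T cells at 42.3 to 136 CPM. In ConA+FICZ neutrophils stood above T cells, at 177 against 42.3 CPM, with 84.8% of their Cd74 UMIs in 5 cells. In ConA+Veh NK cells stood below T cells, at 79.4 against 136 CPM, with 18.75% and 77.0% of their Cd74 UMIs in 5 cells.

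In B cells the classical chains and Cd74 were lower in every library taken after ConA than in Naïve. H2-Aa read 5336 CPM in Naïve, 3417 in ConA+Veh, 2812 in ConA+TCDD and 2603 in ConA+FICZ. H2-Ab1 read 3527, 1839, 1430 and 1602 CPM in the same order. H2-Eb1 read 4194, 2423, 1989 and 1959 CPM. None of these intervals overlapped between Naïve and the ConA libraries, and for each chain ConA+Veh was the highest of the libraries after ConA. On the log2 scale ConA+Veh differed from Naïve by -0.64 for H2-Aa (95% counting interval -0.68 to -0.61), -0.94 for H2-Ab1 (-0.98 to -0.90), -0.79 for H2-Eb1 (-0.83 to -0.75) and -0.77 for Cd74 (-0.78 to -0.75). In ConA+Veh the chains and Cd74 were thus each within 2-fold of Naïve.

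The peptide exchange genes spread much more widely between Naïve and ConA+Veh. H2-Ob, the beta chain of H2-DO, had the largest difference of the 10: 596 CPM in Naïve against 181 in ConA+Veh, 129 in ConA+TCDD and 162 in ConA+FICZ, a log2 ratio of -1.72 between ConA+Veh and Naïve (-1.84 to -1.60). Its partner H2-Oa read 366, 191, 137 and 175 CPM, a log2 ratio of -0.94 (-1.07 to -0.81). H2-DMa, the alpha chain of H2-DM, read 437 CPM in Naïve and 437 in ConA+Veh, a log2 ratio of 0.00 (-0.10 to 0.10), with 326 in ConA+TCDD and 359 in ConA+FICZ. The DO pair therefore fell relative to H2-DMa: of the UMIs of H2-Ob and H2-DMa together, H2-Ob held 57.7% in Naïve and 29.3%, 28.3% and 31.1% in ConA+Veh, ConA+TCDD and ConA+FICZ, and only the Naïve interval stood apart. UMI counts of different genes are not divided by length, so such a share is read between libraries or classes and not between the 2 genes.

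The DM beta chain has 2 gene copies, and they moved by different amounts. H2-DMb2 read 789, 628, 465 and 529 CPM in library order, a log2 ratio of -0.33 between ConA+Veh and Naïve (-0.41 to -0.25). H2-DMb1 read 128, 51.7, 45.3 and 47.7 CPM, a log2 ratio of -1.30 (-1.54 to -1.06). The longest protein-coding transcripts of the copies were 87.3% identical over 1157 aligned positions and shared an identical run of 221 bases, so reads could have been assigned to the wrong copy or dropped, and their separate values are uncertain. Ciita read 103, 48.2, 41.5 and 62.5 CPM, a log2 ratio of -1.09 between ConA+Veh and Naïve (-1.35 to -0.83). It rested on 89 to 278 UMIs a library.

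Of the 10 genes, all of which were tested in B cells, 3 were at least 2-fold lower in ConA+Veh than in Naïve (H2-Ob, H2-DMb1 and Ciita) and 0 were at least 2-fold higher. Over all 8922 genes that reached 30 UMIs in this pair of libraries, 18.1% were at least 2-fold lower and 7.96% higher. The median log2 ratio of the 10 genes was -0.86, against -0.27 over all genes tested, and the lower quartile of all genes was at -0.81. The direction depended on the correction for depth: B cells held 2470 UMIs on average in Naïve and 5843 in ConA+Veh, and with UMIs per cell in place of CPM the median log2 ratio was 0.38. Summed over the 10 genes, the class II UMIs of a B cell were thus more numerous in ConA+Veh than in Naïve while their share of the UMIs of the cell was lower.

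Compared with ConA+Veh, the AhR ligand libraries had slightly lower class II levels in B cells. In ConA+TCDD all 10 genes were lower, by log2 ratios from -0.49 for H2-Ob to -0.15 for Cd74, with a median of -0.32 against 0.02 over all 8496 genes tested. None was called at 2-fold, where the background was 2.67% lower and 0.918% higher. In ConA+FICZ 9 of the 10 were lower and Ciita was higher, at 0.38 (0.12 to 0.63), with a median of -0.22 against 0.03 over 9044 genes, and again none was called (background 1.64% lower and 1.76% higher). These comparisons share the ConA+Veh library, so a low or high level in it would move both. The intervals of H2-DMb1 against ConA+Veh included 0 in both ligand libraries, as did those of Ciita in ConA+TCDD and of H2-Oa in ConA+FICZ.

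**Figure D2:**
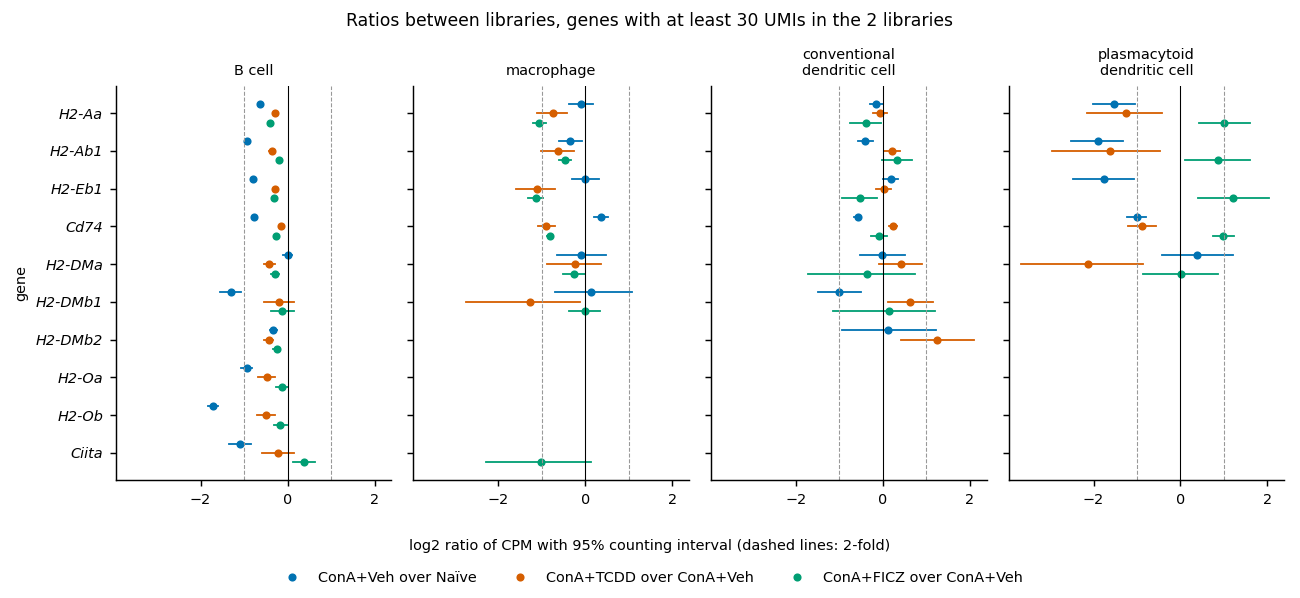
Log2 ratio of CPM between libraries (horizontal axis) for each gene (vertical axis) in 4 cell classes, with 95% counting intervals; only genes that reached 30 UMIs in the pair are drawn, and dashed lines mark 2-fold. In B cells H2-Ob has the lowest ratio of ConA+Veh over Naïve, -1.72, and H2-DMa sits at 0.00. In plasmacytoid dendritic cells the 5 ratios of ConA+FICZ over ConA+Veh run from 0.02 to 1.21, on 10 and 18 cells.

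The lower levels in B cells were spread over the population and were not set by a few cells. The 5 cells with the most class II UMIs held at most 3.82% of the class II UMIs of the B cells in any library. The median B cell devoted 4.30% of its UMIs to the 10 genes in Naïve, 2.79% in ConA+Veh, 2.41% in ConA+TCDD and 2.33% in ConA+FICZ. The lower end moved further: the 10th percentile was 2.72% in Naïve and 0.963%, 0.654% and 0.579% in the libraries after ConA, while the 90th percentile was 5.78% against 4.64%, 4.36% and 3.96%. Cells with at least 1% of their UMIs in the 10 genes, a limit chosen after the values were seen, were 98.3% of the Naïve B cells, 89.6% in ConA+Veh, 83.3% in ConA+TCDD and 82.9% in ConA+FICZ. The binomial intervals of Naïve (97.4 to 99.0%) and ConA+Veh (87.3 to 91.6%) stood apart from each other and from the ligand libraries, whose own intervals overlapped.

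The B cell class pools subsets, and genes that vary between such subsets, 3 of which were chosen after values had been seen, also differed between the libraries. Cd55, a complement regulator, read 402 CPM in B cells of Naïve and 63.7, 49.95 and 52.2 CPM after vehicle, TCDD and FICZ. Ighd, the IgD heavy chain of mature naïve B cells, read 775, 320, 277 and 427 CPM in library order, and Ighm, the IgM heavy chain, read 2426, 1722, 1247 and 1609 CPM. With each cell thinned to 1000 UMIs, a Cd55 UMI was found in 33.9% of the Naïve B cells and in 9.40%, 5.49% and 7.78% of those after ConA, against 56.4%, 28.2%, 21.9% and 23.1% without thinning. A different mix of B cell subsets and a different level within each cell therefore cannot be told apart in the values above. In the B cells without a Cd55 UMI, 475 in Naïve and 594 in ConA+Veh, the median log2 ratio of the 10 genes between these libraries was -0.86, with H2-Ob at -1.57 and H2-DMa at -0.03. For TCDD and FICZ against vehicle it was -0.38 and -0.31, from 314 and 611 such cells. A cell without a Cd55 UMI may still be of the same subset, since few RNA molecules of a cell are captured.

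Shares of B cells with a UMI, after each cell was thinned to 1000 UMIs so that depth was equal, followed the levels. For H2-Ob the share was 47.6% in Naïve, 20.6% in ConA+Veh, 15.1% in ConA+TCDD and 19.8% in ConA+FICZ, from 1056, 766, 364 and 758 cells deep enough, with 33, 61, 38 and 37 cells left out. The share in T cells was 1.03%, 0.398%, 0% (0 of 631 cells, which allows up to 0.475%) and 0.187%. Without thinning the T cell shares were 3.28%, 2.21%, 1.25% and 2.56% and the B cell shares 71.5%, 55.5%, 42.8% and 49.6%, so the drop after ConA was larger at equal depth. For Ciita the thinned B cell shares were 11.6%, 5.35%, 4.67% and 9.10%, and in T cells 1 of 631 cells in ConA+TCDD held a UMI (0.158%), against 0 of 484, 0 of 754 and 0 of 535 in Naïve, ConA+Veh and ConA+FICZ, which allows up to 0.620%, 0.398% and 0.561%. Without thinning the Ciita shares were 21.3%, 22.1%, 16.7% and 26.0% in B cells and 0.193%, 0.390%, 0.313% and 0.366% in T cells.

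**Figure D3:**
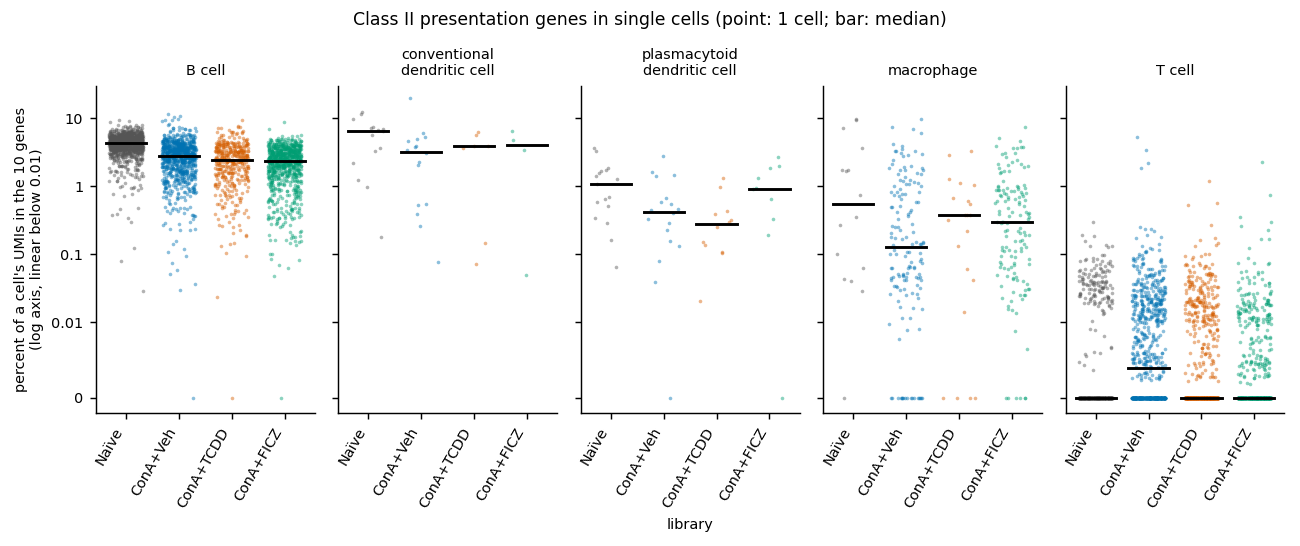
Percent of the UMIs of each cell that belong to the 10 genes (vertical axis, logarithmic above 0.01) by library, with 1 point per cell and a bar at the median, in 5 cell classes. Most B cells lie in a band around medians of 4.30% in Naïve and 2.33 to 2.79% after ConA. Single B cells of ConA+Veh lie as far out as 0 and 11.5%, and macrophages run from 0 to 9.63%.

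Conventional dendritic cells, the professional presenters to naïve T cells, held the highest summed levels of the classical chains and Cd74, from very few cells. For H2-Aa, 5 cells held 82.4% of the UMIs in Naïve and 69.5% in ConA+Veh. H2-Aa read 7300, 6596, 6281 and 5048 CPM in library order. H2-Ab1 read 6060, 4577, 5328 and 5749 CPM, and H2-Eb1 read 4901, 5547, 5612 and 3856 CPM. In these sums the I-A and I-E chains thus stayed within 2-fold across the libraries. In ConA+Veh over Naïve, 7 genes reached 30 UMIs, of which H2-DMb1 was called lower at -1.001 (1023 against 511 CPM) and none higher, with a median of -0.15 against 0.11 over 955 genes (background 5.97% lower and 11.7% higher). That median was not stable. It was -1.06 with at most 1 marker of another class, -1.01 in the median cell and -0.74 without the 5 richest cells of each library. The mean over cells of UMIs per 10000 gave -0.59, and UMIs per cell gave 0.15. In ConA+TCDD over ConA+Veh, 7 reached it and H2-DMb2 was called higher at 1.24 (-0.22 with the gate set on cells thinned to 1000 UMIs). The median was 0.24 against 0.06 over 976 genes (background 6.15% higher and 6.97% lower). H2-DMb2, with 20 and 36 UMIs, reached the minimum through ConA+TCDD, so nothing is read from its call. In ConA+FICZ over ConA+Veh, 6 reached 30 UMIs and none was called, with a median of -0.23 against -0.30 over 609 genes (background 10.2% higher and 24.1% lower). The FICZ library held 4 such cells with a median of 2.5 markers, and 2 of the 4 were at a limit of the gate. At such a limit also stood 4 of 15 cells in Naïve, 9 of 16 in ConA+Veh and 3 of 7 in ConA+TCDD, with medians of 4, 3 and 3 markers. ConA+Veh enters each of these comparisons.

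Which DM beta copy and which DO chain accompanied the classical chains differed between the classes. Of the UMIs of H2-DMb1 and H2-DMb2, H2-DMb1 held 13.9%, 7.61%, 8.87% and 8.27% in B cells in library order. In conventional dendritic cells it held 86.5%, 74.7%, 66.0% and 66.7%. In macrophages it held 100% (13 of 13 UMIs), 91.6%, 100% (6 of 6) and 97.1%, and in monocytes 93.9 to 100%. In each library the interval of the B cells lay below that of each of these classes, within the limit on telling the copies apart given above. H2-DMa by contrast was present in all of them, at 293, 272, 232 and 227 CPM in macrophages, or 62.2 to 71.1% of the B cell level of the same library.

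The DO chains were also divided by class. H2-Oa was found in conventional dendritic cells at 159, 121, 34.01 and 140.2 CPM (14, 14, 3 and 2 UMIs) and in plasmacytoid dendritic cells at 266, 128, 57.0 and 212 CPM (16, 9, 3 and 8 UMIs). H2-Ob had 2, 0, 3 and 0 UMIs in conventional dendritic cells and 1, 0, 0 and 0 in plasmacytoid dendritic cells. In macrophages H2-Oa and H2-Ob together had at most 3 UMIs in a library, in ConA+Veh with 148 cells. H2-Ob therefore had counts above a handful of UMIs in B cells and, as described below, in T cells.

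**Figure D4:**
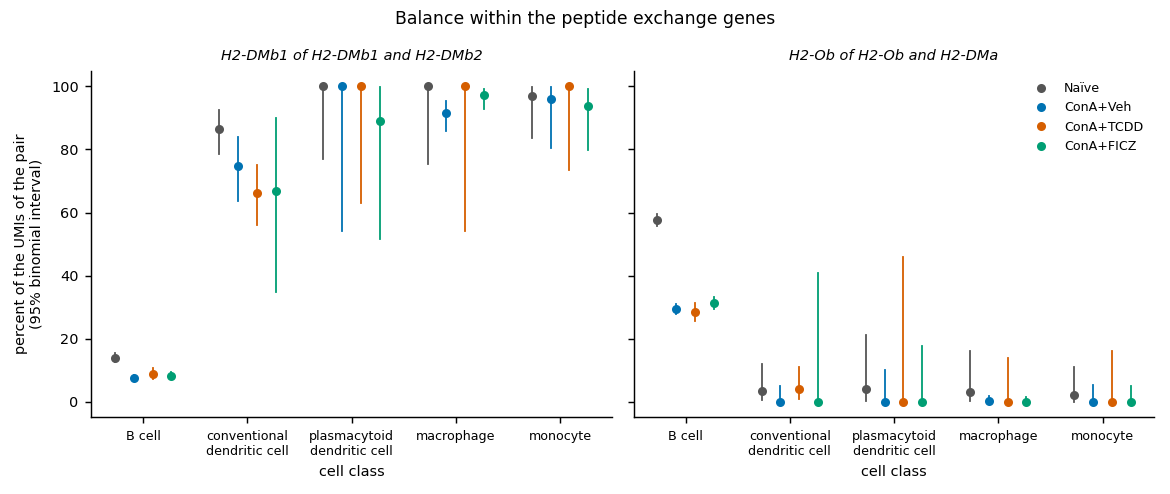
Percent of the UMIs of a gene pair held by its first gene (vertical axis) in 5 cell classes, with 95% binomial intervals and 1 colour per library. H2-DMb1 holds 7.61 to 13.9% of the DM beta UMIs in B cells and at least 66.0% in the other classes, and H2-Ob against H2-DMa is 57.7% in Naïve B cells and 28.3 to 31.1% in B cells after ConA.

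Macrophages, which include the Kupffer cells of the liver, were heterogeneous for class II. There were 16 in Naïve, 148 in ConA+Veh, 21 in ConA+TCDD and 141 in ConA+FICZ, and the 5 cells with the most class II UMIs held 83.2%, 46.6%, 65.2% and 27.2% of the class II UMIs. H2-Aa read 1238, 1152, 687 and 555 CPM, H2-Eb1 read 907, 905, 417 and 412 CPM, and H2-Ab1 read 1181, 931, 603 and 675 CPM. In these sums ConA+Veh and Naïve were close, and the ligand libraries were lower. The median cell differed from the sums: its share of UMIs in the 10 genes was lower in ConA+Veh than in Naïve, by a log2 ratio of -2.11. Cells with at least 1% of their UMIs in the 10 genes were 7 of 16, 34 of 148, 5 of 21 and 28 of 141, with binomial intervals that all overlapped.

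In ConA+Veh over Naïve, 6 of the 10 genes reached 30 UMIs in macrophages and none was called, with a median of -0.05 against -0.04 over 4473 genes (background 10.5% higher and 7.42% lower). With 16 Naïve cells that median was not stable: it was 1.83 without the 5 richest cells of each library and -1.48 when cells with over 1 marker of another class were left out. The trimming behind 1.83 was unequal, since 5 cells are a larger part of 16 than of the 148 in ConA+Veh. In ConA+TCDD over ConA+Veh, 6 reached it and 2 were called lower, H2-Eb1 at -1.12 (-1.58 to -0.69) and H2-DMb1 at -1.27 (-2.74 to -0.11). The background was 10.8% lower and 5.15% higher, and the median was -0.82 against -0.04. H2-DMb1 reached the minimum through ConA+Veh, with 141 UMIs against 6, so this count is not read against its background. In ConA+FICZ over ConA+Veh, 7 reached 30 UMIs and 3 were called lower, H2-Aa at -1.05 (-1.20 to -0.91), H2-Eb1 at -1.14 (-1.31 to -0.97) and Ciita at -1.02 (-2.27 to 0.13). The background was 1.23% lower and 3.41% higher, and the median was -0.81 against 0.13. Ciita reached the minimum largely through ConA+Veh, with 21 UMIs against 10, so this count is not read against its background either. The direction of the sums was not that of the typical cell. The median macrophage had 0.126% of its UMIs in the 10 genes in ConA+Veh, against 0.372% with TCDD and 0.297% with FICZ, log2 ratios of 1.56 and 1.24, and with the 5 richest cells of each library left out the median ratio of ConA+FICZ was -0.28. The call of H2-DMb1 in ConA+TCDD turned to 1.001 when cells with over 1 marker of another class were left out, and that of Ciita in ConA+FICZ to 0.079 when the gate was set on cells thinned to 1000 UMIs. In ConA+Veh the richest macrophage held 1182 class II UMIs, and of the 5 richest, 2 carried UMIs of 3 conventional dendritic cell markers beside 4 of macrophages; their part in the difference was not tested.

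Plasmacytoid dendritic cells, the type I interferon producers, differed widely between libraries, on 17, 18, 12 and 10 cells. H2-Aa read 2076 CPM in Naïve, 723 in ConA+Veh, 304 in ConA+TCDD and 1459 in ConA+FICZ. H2-Ab1 read 1744, 468, 152 and 849 CPM and Cd74 read 7805, 3899, 2109 and 7718 CPM. ConA+TCDD was the lowest for each, and ConA+FICZ stood between ConA+Veh and Naïve or level with Naïve. In ConA+Veh over Naïve, 5 genes reached 30 UMIs and 4 were called lower (H2-Aa at -1.52, H2-Ab1 at -1.90, H2-Eb1 at -1.75 and Cd74 at -1.001), against a background of 8.05% lower and 11.1% higher. In ConA+TCDD over ConA+Veh, 4 reached it and 3 were called lower, H2-Aa at -1.25, H2-Ab1 at -1.62 and H2-DMa at -2.12, against 4.11% lower and 1.64% higher. These 3 reached the minimum through ConA+Veh, with 51, 33 and 35 UMIs against 16, 8 and 6. Of the 4 lower calls of ConA+Veh against Naïve, H2-Eb1 entered through Naïve, with 72 UMIs against 25. H2-Aa, H2-Ab1 and Cd74 held 51, 33 and 275 UMIs in ConA+Veh and would have entered without Naïve. With this filter and 12 to 18 cells a library, neither count is read against its background. In ConA+FICZ over ConA+Veh, 5 reached 30 UMIs and 2 were called higher, H2-Aa at 1.01 and H2-Eb1 at 1.21, against 2.06% higher and 2.81% lower. Only ConA+FICZ held 30 UMIs of H2-Eb1 by itself, with 31 against 25, so this count is not read against its background either.

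The medians over the genes that reached the minimum in plasmacytoid dendritic cells were -1.52, -1.44 and 0.99, against 0.13, 0.01 and -0.07 over 658, 608 and 534 genes. Some of these genes entered only through the library where they were high, so these medians are descriptions. The median cell ran the same way, with 1.08% of UMIs in the 10 genes in Naïve, 0.420% in ConA+Veh, 0.277% in ConA+TCDD and 0.920% in ConA+FICZ. The 5 richest cells held 68.9 to 82.5% of the class II UMIs. Leaving them out turned H2-Aa of ConA+TCDD over ConA+Veh to 1.70, on few remaining UMIs.

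In monocytes the 5 richest cells held 75.9%, 87.3%, 95.9% and 70.9% of the class II UMIs in library order. Without the richest cell 662 of 1031 remained in Naïve, 642 of 1272 in ConA+Veh, 25 of 193 in ConA+TCDD and 574 of 860 in ConA+FICZ. Their H2-Aa level was 646, 544, 70.2 and 359 CPM. The endothelial class, which was not limited to the antigen-presenting cells of the liver sinusoid, had a Naïve sum that rested on 1 cell. Its cells held a median of 11 endothelial markers in Naïve and of 5.5, 5 and 6 after vehicle, TCDD and FICZ. The Naïve endothelial class had 725 class II UMIs, of which 718 came from 1 of its 43 cells, with 17138 UMIs, 8 endothelial markers, 4 conventional dendritic cell markers and 260 UMIs of Cst3. Of the Naïve endothelial cells 35 held no class II UMI, as did 39 of 70, 6 of 7 and 36 of 46 in the libraries after ConA. The 4 genes with at least 30 UMIs were all called lower in ConA+Veh than in Naïve, with a median of -3.01 against 0.08 over 2558 genes (background 10.2% lower and 11.0% higher). H2-Aa and H2-Eb1 reached the minimum through Naïve, with 64 and 109 UMIs against 21 and 19. The Naïve sums rested on 1 cell, so nothing is read from this count or its median. With the 5 richest cells of each library left out, H2-Aa and H2-Ab1 turned to 1.51 and 2.10. Few UMIs remained, since 718 of the 725 of Naïve were in 1 of the cells left out. Nothing is therefore read from these 2 values. In ConA+TCDD over ConA+Veh, 2 genes were called lower (background 16.5% lower and 6.38% higher), Cd74 with 117 and 0 UMIs and H2-Ab1 with 33 and 1. Both reached the minimum through ConA+Veh alone, so their direction was set by the filter and nothing is read from the count. In ConA+FICZ over ConA+Veh none of 3 was called (background 2.66% lower and 3.05% higher).

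T cells had low class II counts whose composition differed from that of B cells. In Naïve the T cell level of Cd74, 43.2 CPM, was 0.179% of the B cell level, and H2-Aa, at 6.39 CPM, was 0.120% of it. H2-DMa, at 36.2 CPM, was 8.29%, and H2-Oa, at 18.1 CPM, was 4.95%. H2-DMa held 45.6% of the UMIs of H2-DMa and Cd74 in T cells and 1.78% in B cells of Naïve, and the source of these UMIs was not tested. In the libraries after ConA the T cell level of H2-DMa was 24.9, 18.7 and 20.9 CPM, or 5.69%, 5.72% and 5.82% of the B cell level in ConA+Veh, ConA+TCDD and ConA+FICZ, against 0.961%, 0.381% and 0.361% for Cd74. H2-Oa was 4.44%, 2.14% and 3.67% of the B cell level and H2-Ob 1.26%, 0.958% and 1.35%. NK cells had the same feature for H2-DMa, at 5.11 to 10.3% of the B cell level against 0.234 to 0.691% for Cd74.

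The classical genes in T cells of ConA+Veh rested on a few cells. That library had 345 UMIs of H2-Aa in T cells against 12 to 59 in the others, and 1932 of its 2615 class II UMIs came from 5 of 769 cells. Each of the top 3 held 490 to 661 class II UMIs with 2 or 3 conventional dendritic cell markers beside 5 to 7 T cell markers. In ConA+TCDD and ConA+FICZ the richest T cell had 70 and 187 class II UMIs and 2 and 3 B cell markers. How such cells arose was not tested, and no doublet caller was run.

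Of 25 other genes of the pathway, in 5 groups, 23 were in the matrices and 21 reached 30 UMIs in B cells. In ConA+Veh over Naïve 4 were called lower and none higher, with a median of -0.28 against -0.27 over all genes tested. The background there was 18.1% lower and 7.96% higher, so the count of lower genes was near it. The lower ones were Rfx5 (25.3 against 12.4 CPM, log2 ratio -1.03) and Rfxank (20.1 against 8.69 CPM, -1.21), subunits of the RFX complex that binds the X box, March1 (120.4 against 34.1 CPM, -1.82), a ubiquitin ligase that removes class II from the surface, and Cd83 (829 against 259 CPM, -1.68), which opposes March1. The RFX subunit Rfxap went the other way within 2-fold, 26.4 against 37.5 CPM (0.50), and the NF-Y genes Nfya, Nfyb and Nfyc lay between -0.64 and -0.03. Of the interferon gamma input genes, Irf1 read 91.8 against 76.8 CPM (-0.26) and Jak1, a kinase of the interferon gamma receptor, 251 against 194 CPM (-0.38). Ctss, the protease that trims the invariant chain in B cells, read 406 against 399 CPM (-0.02). Thus March1 and Cd83 had ratios near that of H2-Ob, while lysosomal processing genes lay from -0.38 to 0.72.

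In the ligand libraries none of the 21 genes was called in B cells, where the background was 2.67% lower and 0.918% higher with TCDD and 1.64% lower and 1.76% higher with FICZ. The ratios ran from -0.84 (Nfya) to 0.74 (Jak2) in ConA+TCDD and from -0.68 (Rfxap) to 0.51 (Rfxank) in ConA+FICZ over ConA+Veh. H2-Eb2, an additional class II beta chain locus, read 59.9, 49.5, 44.4 and 34.4 CPM in B cells and had 0 UMIs in macrophages of every library. In macrophages 3 of 16 tested genes were called higher in ConA+Veh over Naïve (Nfya, Creb1 and Irf1, with 0, 1 and 5 UMIs in Naïve), 1 of 17 higher in ConA+TCDD over ConA+Veh (Irf1) and 1 of 19 lower in ConA+FICZ over ConA+Veh (Cd83, -1.12). The backgrounds of these calls were 10.5% higher, 5.15% higher and 1.23% lower. Nfya, Creb1 and Irf1 reached 30 UMIs through ConA+Veh alone, so nothing is read from the first count. Irf1, a transcription factor induced by interferon gamma, read 47.2, 104, 250.5 and 176 CPM in macrophages in library order, with 1.27 (0.61 to 1.89) for ConA+TCDD and 0.76 (0.41 to 1.12) for ConA+FICZ over ConA+Veh. Irf1 was thus high in the libraries where the summed class II chains of macrophages were low. The class II share of the median macrophage was higher in these libraries than in ConA+Veh, as given above. A relation of Irf1 to class II was not tested. Ctss in macrophages read 3675, 2102, 1623 and 2701 CPM, and Ctsl, the related protease, 387, 357, 659 and 554 CPM.

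In dendritic cells the other pathway genes were too sparse for most of the list. In conventional dendritic cells 8, 5 and 6 of the 23 reached 30 UMIs when vehicle was compared with Naïve and when TCDD and FICZ were each compared with vehicle, with 2 higher and 1 lower, 0 higher and 1 lower, and 2 higher and 0 lower. The backgrounds were 11.7% higher and 5.97% lower, 6.15% higher and 6.97% lower, and 10.2% higher and 24.1% lower, and nothing is read from so few genes. In plasmacytoid dendritic cells 5, 4 and 4 were tested, and in ConA+Veh over Naïve Ctsl was called higher at 1.25 and Irf1 lower at -1.17, against a background of 11.1% higher and 8.05% lower.

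The genes whose levels most resembled those of the chains and Cd74 were sought over 39 points, each a class in a library with at least 10 cells, by Pearson correlation of log2(CPM + 10) with the mean of H2-Aa, H2-Ab1, H2-Eb1 and Cd74 among 9501 genes. The 10 closest held 3 members of the list, H2-DMa (0.90), H2-DMb1 (0.86) and Ciita (0.82). The others were Fgd2 (0.89), Plekho1 (0.88), Pkib (0.85), Ly86 (0.85), Wdfy4 (0.81), Snx30 (0.80) and Cd2ap (0.80). Points of 1 library share their depth and any free RNA, so these are descriptions. H2-DMb2, H2-Oa and H2-Ob were not among the 10.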

How the data were processed

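The authors aligned the reads to mm10, per the study's methods, and counted UMIs with Cell Ranger 3.0.2, per the labels, and deposited raw UMI counts per gene and cell, 1 matrix for each of the 4 libraries, without normalization. Other mapping settings are not given in the sources used here, and reads that match more than 1 gene copy can be lost in such counts. Cells were gated on 88 of 89 listed markers of 12 classes: at least 2 markers detected, a lead of 2 over classes of another lineage and of 1 over the same lineage. UMIs were summed by class and library and scaled to CPM, with exact 95% Poisson, binomial or conditional binomial intervals that cover counting error only. A ratio was tested against the 2-fold limit where the 2 libraries held at least 30 UMIs, and called at 2-fold. Counts of 0 were given an upper limit of 3 counts. Cell filters and doublet removal were not applied to the main values. The genes named were the 10 members, the genes of the listed pathway groups and the 10 genes of highest likeness among genes with at least 200 UMIs. The members, lists and alternatives were chosen with earlier results of these data known. H2-Ea-ps, Ifi30 and the marker Ahsp were not analysed here. A gene of the pathway list is counted in its totals but not reported here by itself. Alternatives covered the gate, cells kept, cell filter, scaling, thinning and minimum UMIs. Intervals were computed with scipy 1.17.1, tables with pandas 2.3.3 and numpy 2.4.6, and figures with matplotlib 3.10.9. The DM beta transcripts were aligned with Biopython 1.88, and all code ran under Python 3.11.15. The ratio code was tested on counts simulated from summed class levels, and the gate was not tested on simulated cells.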

Additional observations from a re-analysis of the deposited data

Results flagged for a closer look

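In ConA+FICZ over ConA+Veh the log2 ratios of H2-Aa and H2-Eb1, from summed UMIs, had opposite signs in plasmacytoid dendritic cells and in macrophages. For H2-Aa the log2 ratio was 1.01 in plasmacytoid dendritic cells and -1.05 in macrophages, and for H2-Eb1 it was 1.21 and -1.14. Each value compares 1 library with 1 library, and the difference between the cell classes was not tested. The plasmacytoid dendritic cells numbered 18 in ConA+Veh and 10 in ConA+FICZ. In that order, 5 of them held 98.0% and 94.5% of the H2-Aa UMIs and 100% and 96.8% of the H2-Eb1 UMIs. H2-Eb1 had 25 UMIs in ConA+Veh and 31 in ConA+FICZ. Only ConA+FICZ reached the minimum of UMIs by itself, so nothing is read from the direction of H2-Eb1 in this class. In the median cell the 10 genes together were higher in ConA+FICZ than in ConA+Veh in both classes, by log2 ratios of 1.13 and 1.24.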

How the results depend on the processing

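Values are log2 ratios, medians over the genes tested unless a gene is named, of ConA+Veh against Naïve and of each ligand library against ConA+Veh. No paired analysis was possible because the labels give no replicate numbers and each condition is 1 library. The level as UMIs per cell, with no depth correction, gave 0.38 for ConA+Veh in B cells (Ciita 0.15), -1.29 for ConA+TCDD in macrophages, and 0.15 (vehicle), 1.05 (TCDD) and -1.24 (FICZ) in conventional dendritic cells. The mean over cells of UMIs per 10000 gave -0.75 for ConA+Veh in B cells, -1.61 (vehicle), -0.23 (TCDD) and -0.21 (FICZ) in macrophages, and -0.59 for ConA+Veh and -0.044 for ConA+TCDD in conventional dendritic cells. With at most 1 marker of another class, macrophages gave -1.48 for ConA+Veh and -0.23 for ConA+FICZ, with H2-DMb1 at 1.001 for ConA+TCDD, conventional dendritic cells gave -1.06 for ConA+Veh and 0.48 for ConA+TCDD, and in endothelial cells H2-Ab1 turned to 2.55 and Cd74 to 1.77 for ConA+Veh over Naïve, with Cd74 against T cells at -0.36 in Naïve. With the gate set on thinned cells, macrophages gave -0.26 for ConA+FICZ (Ciita 0.079) and conventional dendritic cells -0.050 for ConA+TCDD (H2-DMb2 -0.22). The cell filter gave -0.91, and no minimum of UMIs -0.92, for ConA+FICZ in macrophages, and a total without ribosomal protein and mitochondrial genes gave -0.77 for ConA+Veh in B cells. Of the alternatives chosen after seeing the data, leaving out B cells with a Cd55 UMI kept the 3 B cell medians within the medians of the counting bounds, at -0.86, -0.38 and -0.31, and leaving out the 5 richest cells gave 1.83 for ConA+Veh and -0.28 for ConA+FICZ in macrophages, -0.74 for ConA+Veh in conventional dendritic cells, 1.70 for H2-Aa of ConA+TCDD in plasmacytoid dendritic cells, 1.51 for H2-Aa and 2.10 for H2-Ab1 of ConA+Veh in endothelial cells, and -1.03 for Cd74 of endothelial against T cells in ConA+FICZ. The median cell gave -0.62 for ConA+Veh and -0.21 for ConA+TCDD in B cells, -2.11 (vehicle), 1.56 (TCDD) and 1.24 (FICZ) in macrophages, and -1.01 for ConA+Veh in conventional dendritic cells. The cause was not tested. Without the 5 richest cells, the ratios named for endothelial and plasmacytoid dendritic cells rested on few remaining UMIs. The stricter gate of 3 markers kept 87 of 91 log2 ratios within their counting interval and subtracting the T cell level kept 86 of 91. The cell filter kept 89 of 91 and the total without ribosomal protein and mitochondrial genes 85 of 91. Other settings kept fewer. At most 1 marker of another class kept 51 of 87, the gate on thinned cells 58 of 89 and leaving out the 5 richest cells 48 of 75. UMIs per cell kept 53 of 91 and the mean of UMIs per 10000 kept 52 of 91. The 4 to 18 dendritic cells a library, and the 16 and 21 macrophages of Naïve and ConA+TCDD, limit those values beyond what the counting intervals cover.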
